A study of Mus musculus with 24 samples.

Results

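The type 2 helper (Th2) gene group described here comprises 5 cytokines (Il4, Il5, Il13, Il10 and Il24), 2 transcriptional regulators (Gata3 and Maf) and 3 receptor chains (Il4ra, Il1rl1 and Il2ra). The genes were chosen by name, with earlier results of these data known. All 10 of the 10 were found among the 23420 gene symbols counted in each of the 24 RNA-seq libraries. Of these libraries 8 came from Th2 cells, with 4 of WT and 4 of TDG iKO, and 16 from bone marrow-derived macrophages (BMDMs), with 2 libraries for each genotype and time in a Tdg cohort and a Tet cohort.

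The mice were C57BL/6 and 8 to 16 weeks old. TDG iKO mice carried Tdg fl/fl alleles, a tamoxifen-inducible Cre (CreERT2) and a Rosa26 reporter that marks Cre activity with H2B-EGFP, while TET iTKO mice carried floxed Tet1, Tet2 and Tet3 with the same inducible Cre and a Rosa26 EYFP reporter. Control mice were given tamoxifen as well, so that every group shared the drug, and the inducible Cre is not restricted to T cells or macrophages. For Th2 cells, naive CD4+ T cells were sorted from spleen and lymph nodes, those of Cre mice also for the reporter, activated through CD3 and CD28 with IL-4 and an antibody to IFN-γ for 2 days, and then kept in IL-2 without further receptor stimulation. No restimulation of the Th2 cells before RNA was taken is described in the sources used here. BMDMs were grown with macrophage colony-stimulating factor and taken before (0 h) or 6 h after KLA, a purified lipid A that activates TLR4. The labels do not say that libraries of a group came from separate mice, so p-values measure the spread between these libraries.

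Th2 cells are the CD4+ helper cells of responses to parasites and of allergy. IL-4 binds a receptor containing IL-4Rα and activates STAT6, which raises GATA3, the regulator that defines the lineage. GATA3 opens and activates the Il4-Il13-Il5 locus, and c-MAF, the product of Maf, acts with it at Il4 and also at Il10. IL-2 acting through CD25, the product of Il2ra, sustains IL-4Rα and cytokine expression, while ST2, the product of Il1rl1, is the receptor for the alarmin IL-33.

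Some facts about the Th2 libraries bear on all values below. Replicates 3 and 4 of each genotype differed by little more than counting noise (mean chi-square per gene of 1.51 in WT and 1.34 in TDG iKO, where all remaining Th2 pairs of 1 genotype had 21.3 to 218). They were therefore counted as 1 sample in each mean ± SD, which has n = 3. The Th2 tests between genotypes kept replicates 3 and 4 as separate samples unless they are said to be summed. Replicates 1 and 2 held 7641848 to 12288517 assigned counts and replicates 3 and 4 held 12522533 to 26657729, and the 45S ribosomal RNA gene took 0.840% to 8.34% of counts in the former and 0.347% to 0.387% in the latter. The TDG iKO library of replicate 1 was the only one of 8 with a male pattern of sex-linked genes. Tdg had 1 to 7 counts in every Th2 library, WT included, and so could not check the knockout label. All 8 listed T cell markers were above 3 counts in all 8 Th2 libraries, and all 7 macrophage markers in all 16 BMDM libraries. Intervals and floors cover counting error only, and in bulk RNA fewer cells of a type and less RNA per cell cannot be told apart.

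The members lie at 7 places in the mm9 genome. Il13 (chromosome 11, 53444826 to 53448204, minus strand) lies 12.7 kb from Il4 (chromosome 11, 53416484 to 53432171, minus strand) and 86.1 kb from Il5 (chromosome 11, 53534296 to 53538608, plus strand). Il24 (chromosome 1, 132778651 to 132784031, minus strand) and Il10 (chromosome 1, 132916422 to 132921551, plus strand) are 132 kb apart. Gata3 (chromosome 2, 9778705 to 9811661) and Maf (chromosome 8, 118206842 to 118231694) are both on the minus strand. Il4ra (chromosome 7, 132695785 to 132722986), Il1rl1 (chromosome 1, 40486415 to 40522260) and Il2ra (chromosome 2, 11564419 to 11614818) are all on the plus strand. Il4 overlaps Kif3a, transcribed from the other strand, over 179 exonic bases, and Gata3 overlaps 9230102O04Rik over 77. Since the strand setting of the count is not given in the sources used here, reads in those bases cannot be told apart.

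The 250 bases before the annotated start are shown for the 3 cytokines of the chromosome 11 cluster, which are GATA3 targets, and for Il1rl1, the member whose level differed most between the Th2 libraries. Sequences and coordinates are from RefSeq on GRCm38.p6, another build than the counts, and are printed 5′ to 3′ on the gene's strand. The table held windows for 7 of the 10 members, and Il10, Il24 and Maf had none in it. Capitals mark matches to a GATA motif (GATA with A or T before it and A or G after it, on either strand).
Il4, first start chr11:53618666-53618915 (minus strand): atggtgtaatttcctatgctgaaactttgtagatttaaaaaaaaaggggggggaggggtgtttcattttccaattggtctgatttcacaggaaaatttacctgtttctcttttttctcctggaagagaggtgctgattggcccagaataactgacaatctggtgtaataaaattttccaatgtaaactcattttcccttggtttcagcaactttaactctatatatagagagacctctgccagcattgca
Il4, second start chr11:53617339-53617588 (minus strand): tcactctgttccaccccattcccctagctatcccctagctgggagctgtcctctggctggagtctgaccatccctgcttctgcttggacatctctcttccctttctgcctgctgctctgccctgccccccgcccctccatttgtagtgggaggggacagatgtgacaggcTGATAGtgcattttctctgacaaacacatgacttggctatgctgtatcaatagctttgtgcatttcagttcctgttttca
Il13 chr11:53634703-53634952 (minus strand): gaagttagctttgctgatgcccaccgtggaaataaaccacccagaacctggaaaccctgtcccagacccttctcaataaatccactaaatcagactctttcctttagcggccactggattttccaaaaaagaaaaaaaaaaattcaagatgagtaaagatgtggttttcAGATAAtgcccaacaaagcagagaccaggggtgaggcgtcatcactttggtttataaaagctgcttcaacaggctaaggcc
Il5 chr11:53720544-53720793 (plus strand): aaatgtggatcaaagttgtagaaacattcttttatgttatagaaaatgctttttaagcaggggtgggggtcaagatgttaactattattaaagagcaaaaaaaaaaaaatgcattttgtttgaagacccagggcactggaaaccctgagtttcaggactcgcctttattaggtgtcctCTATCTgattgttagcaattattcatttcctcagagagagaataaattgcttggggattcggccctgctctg
Il1rl1, first start chr1:40429320-40429569 (plus strand): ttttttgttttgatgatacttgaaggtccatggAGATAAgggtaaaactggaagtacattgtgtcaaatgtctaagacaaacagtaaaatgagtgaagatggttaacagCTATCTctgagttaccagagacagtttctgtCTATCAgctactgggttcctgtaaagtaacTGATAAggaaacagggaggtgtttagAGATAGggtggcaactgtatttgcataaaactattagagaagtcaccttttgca
Il1rl1, second start chr1:40439379-40439628 (plus strand): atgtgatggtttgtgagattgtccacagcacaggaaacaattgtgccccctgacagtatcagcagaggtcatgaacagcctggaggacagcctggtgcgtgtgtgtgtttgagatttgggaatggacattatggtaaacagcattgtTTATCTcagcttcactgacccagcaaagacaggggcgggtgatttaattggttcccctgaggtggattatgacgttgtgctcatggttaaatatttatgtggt
The windows of Il13, Il5 and the second start of Il4 held 1 GATA match each, at 81, 72 and 80 bases before the start, and those of Il1rl1 held 5 and 1. The windows of Gata3, Il4ra and Il2ra and the first start of Il4 held none, and 26.5% of the 32851 windows of all genes held at least 1. A STAT6 motif (TTC and GAA with any 4 bases between them, which reads the same on both strands) was found in 1 of the 9 member windows, that of the first Il4 start, against 5.85% of all windows. The NFAT core (GGAAA on either strand) occurred 5 times in that window, with 1 match overlapping the STAT6 match, and 55.6% of all windows held it. Matches are a description of letters and not of binding.

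In WT Th2 cells the members spanned a wide range of levels per transcript length, given as TPM (counts divided by exonic length and scaled to a common total). Il2ra was the highest at 1480.04 ± 569 TPM (SD, n = 3), rank 73 of the 21259 genes with a length, followed by Il10 at 1286 ± 609 and Il24 at 912 ± 670. Il24 is a cytokine of the IL-10 family. Il4ra stood at 792 ± 102 TPM and Gata3 at 301 ± 42.8. The hallmark cytokine Il4 had 172 ± 66.2 TPM, Il13 70.4 ± 46.0 and Il5, which drives eosinophils, 31.4 ± 22.5. Maf had 55.8 ± 12.7 TPM and Il1rl1 6.41 ± 10.8. The ranges of neighbours in this order overlapped except between Il4ra and Gata3 and between Gata3 and Il4. Within samples the order was kept in 3 of 3, apart from Il24 over Il4ra, Il13 over Maf and Il5 over Il1rl1, each kept in 2 of 3.

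The question put to the Th2 libraries by genotype was whether the programme depends on TDG, the glycosylase that removes oxidised methylcytosine. DESeq2 called 0 of the 10 members between TDG iKO and WT (2 at an unadjusted p under 0.05, Maf and Gata3), and 0.0126% of all 15889 genes tested. Ndor1, into which the CreERT2 cassette was inserted, had 184 to 412 normalised counts in the TDG iKO libraries and 507 to 1012 in WT, in the direction of the labels. The edgeR quasi-likelihood test also called 0 members, with 2 at an unadjusted p under 0.05. In all 4 pairs of libraries with the same number, TDG iKO was below WT for Maf and for Gata3, and for no other member.

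Maf encodes the AP-1-like factor that acts on the Il4 promoter. Its normalised counts, on DESeq2's size-factor scale, were 2489, 2099, 1430.0 and 1512 in WT replicates 1 to 4, and 1398, 1184, 1129.7 and 1121 in TDG iKO. All 4 TDG iKO libraries lay below all 4 WT libraries, and the 2 genotypes were furthest apart in replicates 1 and 2. The TDG iKO to WT ratios were 0.562, 0.564, 0.790 and 0.742 in the order of the replicate numbers. The log2 fold change was -0.64 (SE 0.21, 95% limits -1.06 to -0.22), and the DESeq2 p of 0.00295 became 1 after adjustment. Maf was the 1 member of 10 whose genotypes did not overlap, and 1.56% of all genes had no overlap (0.742% lower in TDG iKO).

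The call on Maf changed when Th2 libraries were paired by the replicate number as a block, a pairing taken from the numbers alone. In the blocked fit Maf changed by -0.60 (SE 0.11, DESeq2 adjusted p 5.6e-05), the only member among the 0.547% of genes called. That fit counts replicates 3 and 4 as separate pairs although they differed by little more than counting noise. With replicates 3 and 4 summed and the block kept, the change was -0.68 (SE 0.13, DESeq2 adjusted p 0.000258, 0.0944% of genes called). Without the pair that holds the library of male pattern, and with replicates 3 and 4 separate, it was -0.52 (SE 0.11, DESeq2 adjusted p 0.000518, 0.581%). In replicates 1 and 2 alone, fitted without the block, it was -0.84 (SE 0.14, DESeq2 adjusted p 6.8e-06, 0.312%). The edgeR test with the block gave -0.61 and an adjusted p of 0.0796, which did not pass. The lower Maf in TDG iKO was thus called by DESeq2 in each fit with the block. Without the block, DESeq2 called it in replicates 1 and 2, and with the library set as a covariate (next paragraph). The edgeR test called it neither with nor without the block.

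Gata3 had 5582, 4523, 5626 and 5471 normalised counts in WT and 3530.1, 4121, 4624 and 4713 in TDG iKO. The genotypes overlapped across numbers, since WT replicate 2 was below 2 of the TDG iKO libraries, while the ratio was under 1 within every pair, at 0.632, 0.911, 0.822 and 0.861. The log2 fold change was -0.32 (SE 0.14, DESeq2 adjusted p 1, and 0.0767 with the replicate block). With the library set as a covariate in place of the pair, Gata3 (DESeq2 adjusted p 0.0034), Maf (3.4e-06) and Il1rl1 (0.0346) were called, along with 3.99% of all genes. Like the replicate block over all 8 libraries, that fit counts replicates 3 and 4 as separate samples. With them summed and the block in place, Gata3 had a DESeq2 adjusted p of 0.438 and Maf one of 0.000258.

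**Figure D1:**
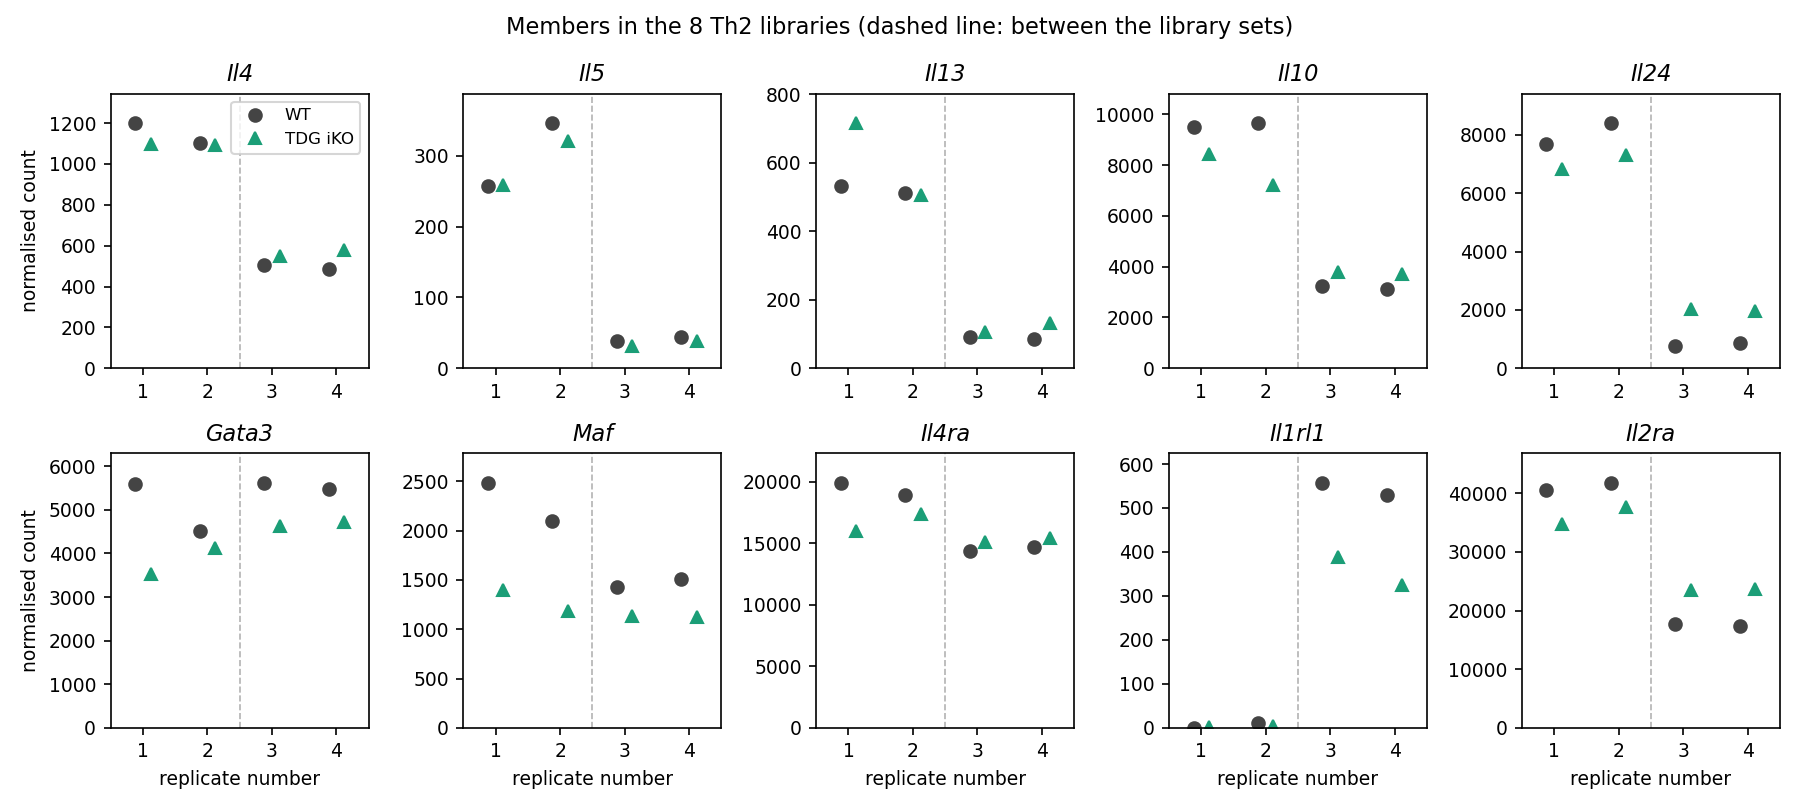
Normalised counts (linear axis, starting at 0) of each of the 10 members in the 8 Th2 libraries by replicate number, with WT as circles and TDG iKO as triangles, and a dashed line between replicates 1 and 2 and replicates 3 and 4. Maf was lower in TDG iKO at every number, Il1rl1 was at or near 0 in replicates 1 and 2, and the 5 cytokines were lower in replicates 3 and 4 in both genotypes.

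Over all 8 libraries, none of the 5 cytokines passed the DESeq2 test between genotypes. Il4 had 1200.4, 1099.9, 507 and 486 normalised counts in WT and 1096, 1090.1, 550.1 and 579 in TDG iKO. Its log2 fold change was 0.01 (SE 0.40), and 0.06 (SE 0.10) with the replicate block. The ratio within a pair was 0.913 and 0.991 in replicates 1 and 2 and 1.08 and 1.19 in replicates 3 and 4, while the level in replicates 3 and 4 was under that of replicates 1 and 2 in both genotypes. Il5 had 257, 347, 39.2 and 43.8 normalised counts in WT and 259.6, 322, 32.0 and 39.2 in TDG iKO. Il13, which acts on epithelium and shares the IL-4Rα chain, had 532, 512, 90.6 and 84.9 in WT and 717, 506, 105 and 132 in TDG iKO. The log2 fold changes of -0.07 (SE 0.88) and 0.26 (SE 0.77) became -0.12 (SE 0.18) and 0.31 (SE 0.15) with the block, and neither passed (DESeq2 adjusted p 0.866 and 0.385).

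Il10, the anti-inflammatory cytokine, had 9520.1, 9661, 3241 and 3136 normalised counts in WT and 8426, 7212, 3787 and 3731 in TDG iKO. Il24 had 7674, 8407, 772 and 856 in WT and 6815, 7294, 2023 and 1959.6 in TDG iKO. Both were lower in TDG iKO in replicates 1 and 2 and higher in replicates 3 and 4, which left log2 fold changes near 0 over all libraries (-0.14, SE 0.47, and 0.03, SE 0.79).

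Among the receptors, Il4ra had 19947, 18914, 14394.5 and 14728 normalised counts in WT and 16001, 17370.1, 15087 and 15415 in TDG iKO. Its log2 fold change was -0.09 (SE 0.15, 95% limits -0.38 to 0.20), the narrowest limits but those of Gata3 in the group. Il2ra had 40501, 41818, 17724 and 17335 in WT and 34736, 37684, 23508 and 23735 in TDG iKO, with a change of 0.03 (SE 0.36). For Il1rl1 the raw counts were 0, 7, 911 and 1174 in WT and 1, 2, 475 and 341 in TDG iKO. It was detected well in replicates 3 and 4 alone, where TDG iKO was lower in both pairs, which are close to 1 observation. The Il1rl1 change of -0.61 (SE 2.08) had a DESeq2 adjusted p of 1, and 0.110 with the block.

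**Figure D2:**
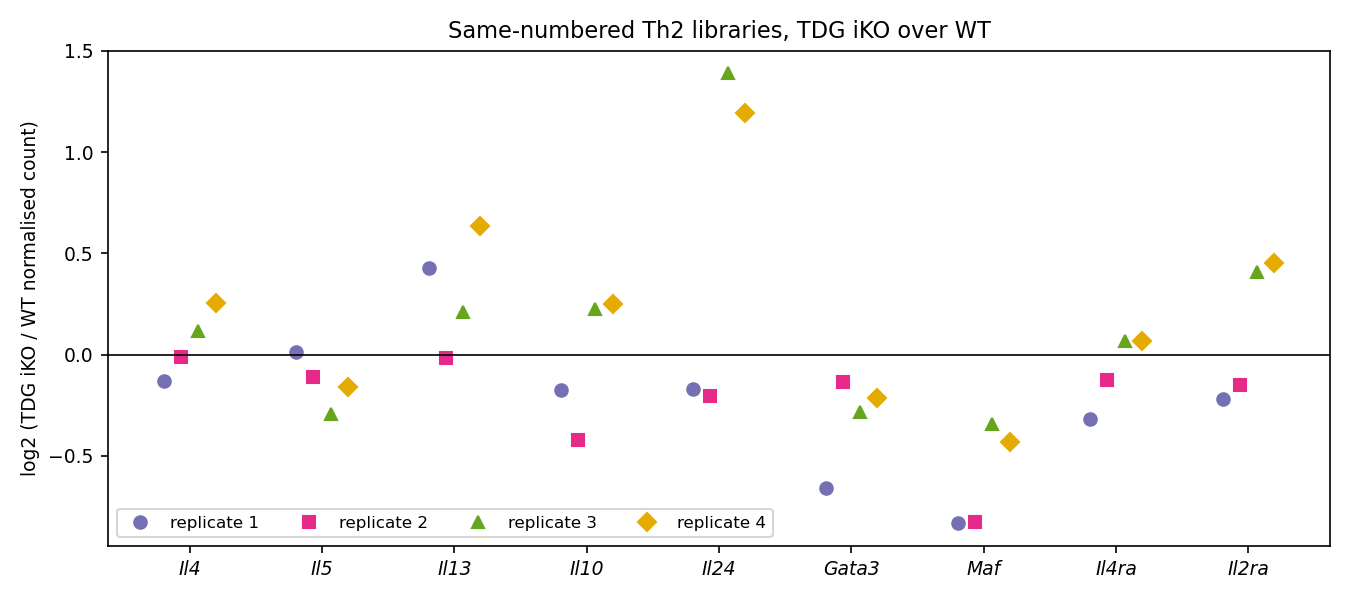
Log2 ratio of normalised counts, TDG iKO over WT, in each same-numbered pair of Th2 libraries for 9 members (Il1rl1 is left out, as it had 0 to 7 counts in replicates 1 and 2). Maf and Gata3 lie under 0 in all 4 pairs, while Il4, Il10, Il24, Il4ra and Il2ra lie under 0 in replicates 1 and 2 and above 0 in replicates 3 and 4.

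The other genes of the pathway, taken from lists of related genes, likewise held 0 calls by genotype with either tool, in fits with genotype alone. In such fits the spread within a genotype includes the difference between the library sets. DESeq2 called 0.0126% of all genes in that fit, 0.547% with the replicate block and 3.99% with the library set as a covariate. No list counts are given here for the latter fits, so the 0 calls cannot show that these genes were unchanged. At an unadjusted p under 0.05, DESeq2 and edgeR had 0 and 0 of 15 genes of IL-4 and IL-2 receptor signalling, 3 and 2 of 22 Th2 transcription factors, 1 and 1 of 18 other effector genes, and 1 and 0 of 11 activation genes. Over all genes, 219 of 15889 with DESeq2 and 140 of 11300 with edgeR were under it. Of 16 genomic neighbours of the members, 15 had a p and neither tool had 1 under 0.05.

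The larger difference among the Th2 libraries ran between replicates 1 and 2 and replicates 3 and 4. It was tested with replicates 3 and 4 of each genotype summed and with genotype as a covariate. DESeq2 called 9 of 10 members, 8 lower and 1 higher in replicates 3 and 4, and 41.3% of all genes (20.6% higher and 20.7% lower). The median log2 change was -0.99 for the members and 9.5e-05 over all genes. The edgeR test called 9 members as well. The labels name no batch, and mice, culture, library preparation and sequencing run cannot be told apart as sources of the difference between these sets.

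The 5 cytokines all fell. Il5 changed by -2.93 (SE 0.21) on the log2 scale, and its mean normalised count was 7.69-fold higher in replicates 1 and 2. Il24 changed by -2.49 (SE 0.42) and Il13 by -2.47 (SE 0.17), with mean levels 5.38-fold and 5.50-fold higher in replicates 1 and 2. Il10 changed by -1.31 (SE 0.13) and Il4 by -1.08 (SE 0.11). The largest DESeq2 adjusted p of these cytokines was that of Il24, at 1.9e-08. The sets did not overlap for any of the 5 (23.9% of all genes were lower in replicates 3 and 4 without overlap), so that the cytokines of 2 loci on 2 chromosomes were higher in the same 4 libraries.

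The receptors moved in opposite directions. Il2ra changed by -0.90 (SE 0.13) and Il4ra by -0.26 (SE 0.09, DESeq2 adjusted p 0.0143), both lower in replicates 3 and 4. The call on Il4ra was lost without WT replicate 1, WT replicate 2, TDG iKO replicate 2 or the WT sample of replicates 3 and 4, with changes of -0.26 to -0.12. Il1rl1 changed by 7.003 (SE 1.35, DESeq2 adjusted p 1.2e-06) and had a mean 114-fold higher in replicates 3 and 4. Its normalised counts were 0 and 11.3 in WT and 1.07 and 3.35 in TDG iKO in replicates 1 and 2, against 558 and 529.9 in WT and 389 and 326 in TDG iKO in replicates 3 and 4. The call on Il1rl1 held in TDG iKO alone (7.52) but not in WT alone (6.60, DESeq2 adjusted p 0.21), fits added after the data were seen.

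Of the regulators, Maf changed by -0.41 (SE 0.14, DESeq2 adjusted p 0.0082) and Gata3 by 0.22 (SE 0.12, DESeq2 adjusted p 0.106), which did not pass. For Maf and for Il4ra the call held in WT alone (-0.62 and -0.39) and not in TDG iKO alone (-0.18 and -0.11, DESeq2 adjusted p 0.565 and 0.625), and that of Maf was also lost without the WT sample of replicates 3 and 4 (-0.19). Gata3 passed at 0.30 without WT replicate 1. Of the 10 members, 8 had sets that did not overlap, 7 lower and 1 higher, against 48.7% of all genes (23.9% lower and 24.8% higher). The exceptions were Gata3 and Maf.

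**Figure D3:**
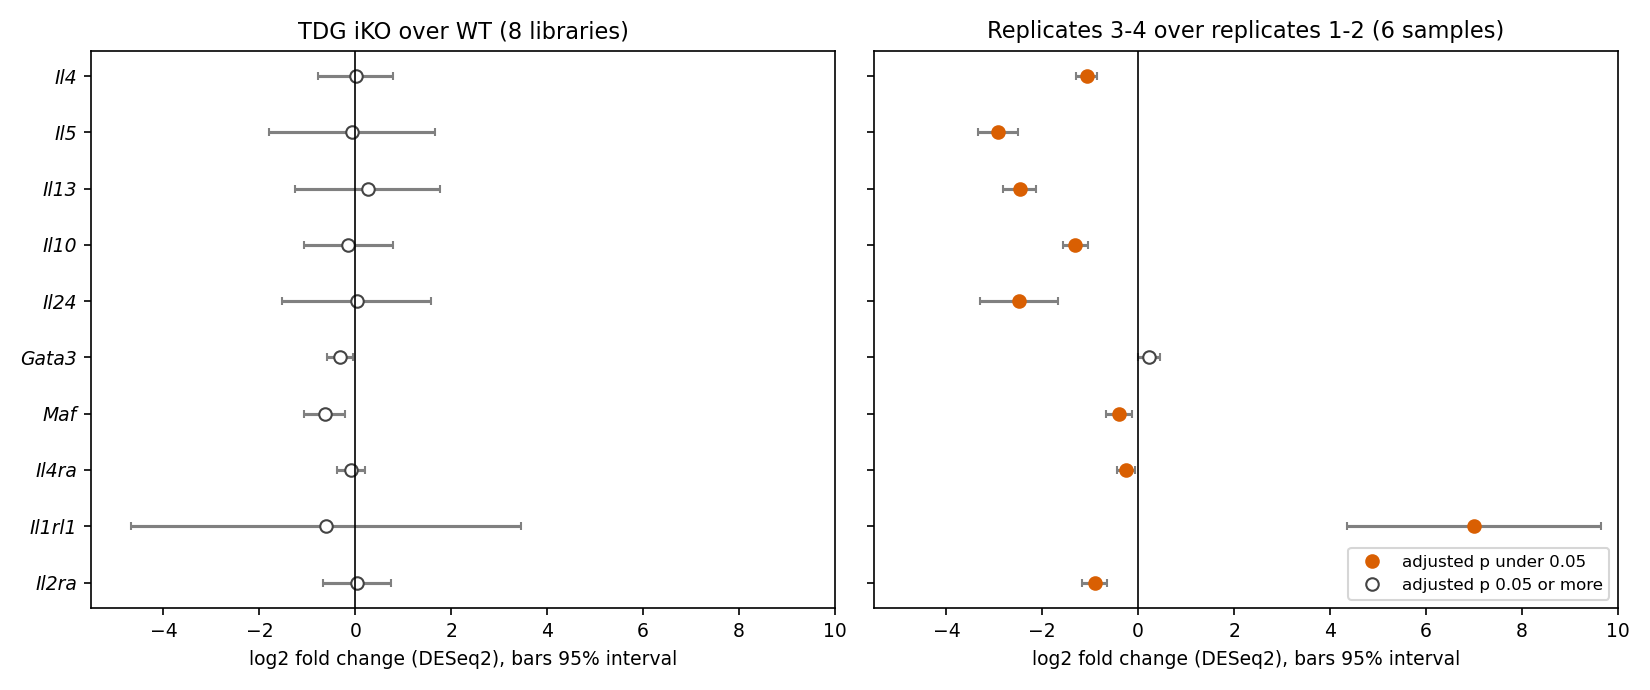
Log2 fold changes with 95% limits for the 10 members, for TDG iKO over WT over all 8 Th2 libraries and for replicates 3 and 4 over replicates 1 and 2. The genotype effects lie around 0 with Maf lowest, whereas the set effects run from -2.93 for Il5 to 7.003 for Il1rl1.

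Other pathway genes differed between the sets in both directions, and the counts of each list stand beside the 20.6% of all genes higher and 20.7% lower. In IL-4 and IL-2 receptor signalling 8 of 15 genes rose and 3 fell in replicates 3 and 4. Socs3, a feedback inhibitor of cytokine signalling, rose by 1.90, the IL-7 receptor chain Il7r by 1.13 and Jak3 by 1.05, while Il13ra1 changed by -3.17 at a mean of 7.06 normalised counts. Of 22 Th2 transcription factors 8 rose and 6 fell. Irf4, which cooperates with BATF in activated T cells, changed by -2.10 and Bhlhe41 by -2.19, while Tcf7 (1.89) and Bcl6 (1.85), both higher in naive, memory or follicular cells, rose. Of 11 activation genes 3 rose and 3 fell, with Cd40lg (1.41), Egr3 (1.37) and Nr4a1 (1.09) higher and Fos (-0.95) lower.

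Among 18 other effector genes 6 rose and 5 fell. Il18r1 and Il18rap, the IL-18 receptor chains encoded next to Il1rl1, changed with it by 3.80 and 3.07. Their raw counts were 1 to 21 and 7 to 22 in replicates 1 and 2, and 136 to 367 and 152 to 482 in replicates 3 and 4. Il9 had 3 to 10 counts in replicates 1 and 2 and 0 in all 4 libraries of replicates 3 and 4, and Il31 changed by -3.16 with at most 10 counts.

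The neighbours of the members did not all follow them. Of 16 neighbours 2 rose and 7 fell in replicates 3 and 4. Il19, which belongs to the same gene cluster as Il24 and Il10, rose by 2.19 while Il24 and Il10 fell. At the Il4 locus, Kif3a changed by -1.61 and Rad50, which holds the locus control region in its introns, by -0.98. Beside Il1rl1, Il1rl2 rose by 1.13 and Il1r2, a decoy receptor for IL-1, changed by -1.81.

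Markers of other cells also differed between the sets, and their part in the member results was not tested. T cell markers were higher in replicates 3 and 4 (5 of 8 called, summed level 4595 to 4952 TPM against 3028 to 3510.2), and 1 of 3 Treg markers (Ctla4, -1.16, summed level 53.6 to 66.7 TPM against 98.0 to 136) and 2 of 3 Th1 markers (Cxcr3, -2.61, and Tbx21, -1.98, summed level 6.17 to 17.2 TPM against 43.3 to 65.7) were lower. Of 7 macrophage markers 2 were higher (Emr1 and Itgam, summed level 51.3 to 57.2 TPM against 12.8 to 20.4), with Csf1r at 0 counts in all 8 libraries. Of 3 CD8 T cell markers Cd8a rose, from 0 or 1 to 14 to 58 counts (summed level 38.7 to 46.7 TPM against 31.9 to 46.5).

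Mast cells and basophils also express Il4, Il13 and Il1rl1. DESeq2 called 0 of 5 of their markers, with 1 at an unadjusted p under 0.05, and the summed level was 1.56 to 2.22 TPM in replicates 3 and 4 against 0 to 1.01. Of these 5 markers, Fcer1a, Ms4a2 and Prss34 had 0 counts in all 8 Th2 libraries, and Cpa3 had 10 to 28 counts in replicates 3 and 4 against 0 to 4. In each library of replicates 3 and 4, 4 of the 5 were at or under 3 counts. The part of these markers in the member results was not tested. B cell, NK cell and Th17 markers had 0 calls by DESeq2 (1 of 4, 0 of 3 and 2 of 4 at an unadjusted p under 0.05), with 1 call each by edgeR, and summed levels of 6.72 to 8.94, 232 to 342 and 0.513 to 1.64 TPM in replicates 3 and 4 against 2.14 to 4.49, 319 to 537 and 0.978 to 6.29 TPM. In every Th2 library 2 of the 3 NK cell markers were at or under 3 counts, so their sum rests on Gzma alone.

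Whether the genotype effect differed between the sets was tested as an interaction, and 1 of 10 members, Il24, passed, with 0.0629% of all genes. The WT to TDG iKO change of Il24 was a 0.877-fold level in replicates 1 and 2 and a 2.45-fold level in replicates 3 and 4. The difference was 1.47 on the log2 scale (SE 0.19, DESeq2 adjusted p 1.1e-10, edgeR adjusted p 0.0155). The replicates 3 and 4 sample of each genotype entered as a single sample, so its spread was taken from replicates 1 and 2. Il10 (0.53) and Il2ra (0.62) had differences of the same sign that did not pass (DESeq2 adjusted p 1 and 0.196), and that of Maf was 0.43 (DESeq2 adjusted p 1).

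BMDMs served as the contrast of cell type. Between WT Th2 cells and unstimulated WT BMDMs of both cohorts, 8 members were higher in Th2 cells and 1 lower, and Il1rl1 was given no p by DESeq2 because of an outlying count. Over all genes 47.5% were called (25.1% higher and 22.3% lower). Il5, Il13 and Il24 had 0 counts in all 16 BMDM libraries, and Il4 and Gata3 at most 1.

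Against the floor of 3 counts per library, Il24 was at least 538-fold higher in WT Th2 cells, Gata3 at least 500.1-fold, Il4 at least 89.1-fold, Il13 at least 36.0-fold and Il5 at least 20.5-fold. Il2ra, with 15 counts summed over the 4 BMDM libraries, was higher by 12.76 on the log2 scale (SE 0.61). For Il1rl1, with 3 counts in the 4 BMDM libraries, the ratio of summed counts scaled for depth was 451 (95% counting limits 154 to 2191). The DESeq2 log2 change was 7.48 (SE 2.69), or 179-fold. Both values rest on the WT sample of replicates 3 and 4. Without that sample the log2 change was 2.45 (SE 2.65, DESeq2 adjusted p 0.442). Il10 and Il4ra were expressed in both cell types and were higher in Th2 cells by 5.38 (SE 0.40) and 1.89 (SE 0.19). Maf was the 1 member lower in Th2 cells, by -1.93 (SE 0.33), with 96.6 to 171 TPM in the BMDMs.

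**Figure D4:**
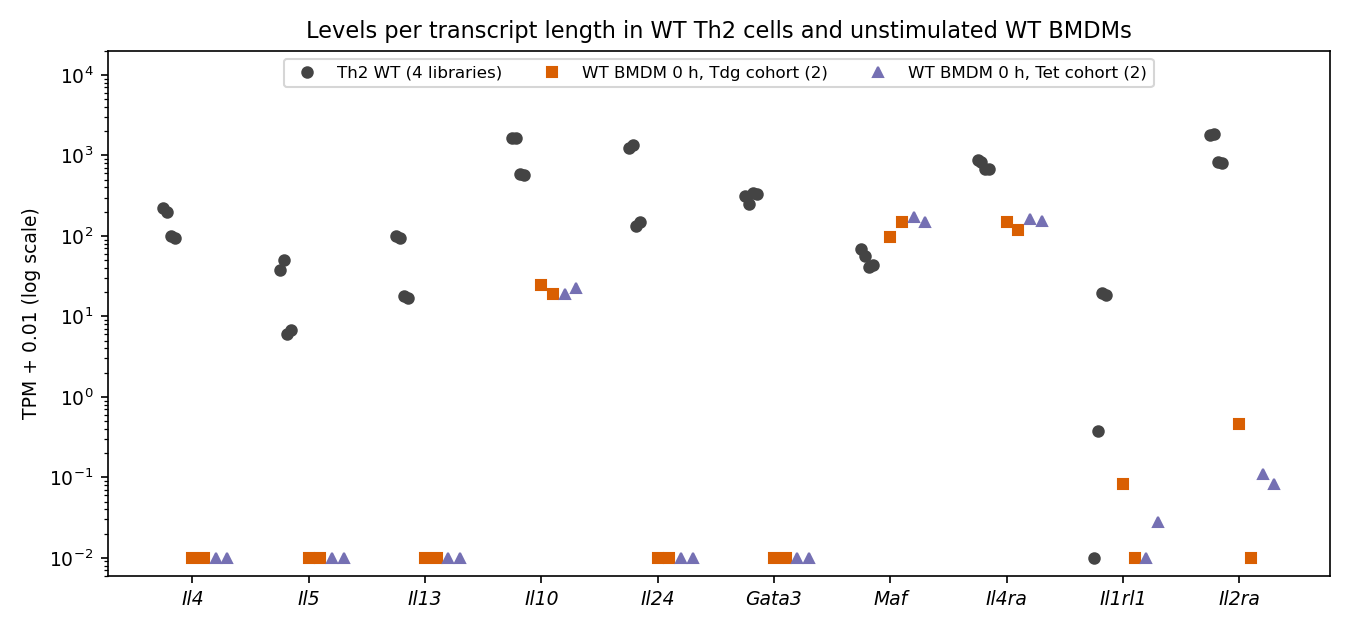
Levels per transcript length (TPM + 0.01, log axis) of the 10 members in 4 WT Th2 libraries and in 4 unstimulated WT BMDM libraries, 2 of each cohort. Il4, Il5, Il13, Il24 and Gata3 lie at 0 TPM in the BMDMs, Il10 and Il4ra are present in both cell types, and Maf is higher in the BMDMs.

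In BMDMs 3 members, Il10, Maf and Il4ra, were well above the floor in all 16 libraries. TDG iKO and WT were compared at 0 h and at 6 h, and DESeq2 called 0 members and 0% of all genes at either time (0 members at an unadjusted p under 0.05, 0 by edgeR). The log2 changes of Il4ra were 0.05 (SE 0.30) at 0 h and -0.03 (SE 0.30) at 6 h.

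Il4ra fell after KLA in WT cells of both cohorts. In the Tet cohort its normalised counts were 5211 and 4893 at 0 h and 2896 and 2794 at 6 h, a log2 change of -0.83 (SE 0.10, DESeq2 adjusted p 2.8e-15), the 1 member called beside 19.1% of all genes (8.77% lower). In the Tdg cohort they were 2900.4 and 3267.5 at 0 h and 1424 and 1665 at 6 h, a change of -0.997 (SE 0.30, DESeq2 adjusted p 0.0157), beside 6.66% of genes called (2.57% lower). In the Tdg cohort the call was lost with edgeR (adjusted p 0.100) and without any 1 of 3 of the 4 WT libraries, with changes of -1.11 to -0.89 over the 4. The Il4ra response did not differ by TDG genotype beyond its error (-0.08, 95% limits -0.91 to 0.76).

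Before KLA, Il4ra was higher in the libraries labelled TET iTKO, whose counts per gene cannot check the deletion of exons. At 0 h these libraries labelled TET iTKO had 7003 and 7189 normalised counts against 5211 and 4893 in WT, a change of 0.49 (SE 0.10, DESeq2 adjusted p 3.7e-05, edgeR adjusted p 0.0098). Il4ra was the 1 member called, beside 6.09% of all genes (3.55% higher). At 6 h the libraries had 3079 and 2994 against 2896 and 2794, a change of 0.09 (SE 0.10, DESeq2 adjusted p 0.77), with 0 members called by DESeq2 beside 5.09% of genes. The KLA response differed by -0.40 (SE 0.14), which did not pass (unadjusted p 0.0048, DESeq2 adjusted p 0.399; 0.346% of genes were called), so the effects at 0 h and 6 h were not shown to differ. B cells also express IL-4Rα. At 0 h 3 of 4 B cell markers were called higher in TET iTKO, with a median log2 change of 2.81. Their summed level was 9.28 and 30.6 TPM against 2.09 and 2.43 in WT. At 6 h, where the Il4ra change was 0.09, 1 of 4 was called higher, and 4 of 4 had an unadjusted DESeq2 p under 0.05. The median log2 change of these markers was 2.11 at 6 h, and the summed level was 5.72 and 24.95 TPM against 2.72 and 3.32. Of 7 macrophage markers at 0 h 2 were higher and 3 lower in TET iTKO, with Cd14 at 1.64 and Mrc1 at -1.12, and the summed level was 37293.8 and 36413.5 TPM against 45509.9 and 43775.6 in WT. The part of these markers in the Il4ra result was not tested.

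Il10 and Maf did not pass in any BMDM comparison with all libraries in. Il10 had 156 and 183 normalised counts at 0 h and 188 and 345 at 6 h in WT of the Tet cohort, a change of 0.65 (SE 0.30, DESeq2 adjusted p 0.101). Maf had 8779 and 7775 at 0 h in WT and 9281 and 10031 in TET iTKO, and changed by 0.22 (SE 0.11, DESeq2 adjusted p 0.253). Neither difference passed.

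**Figure D5:**
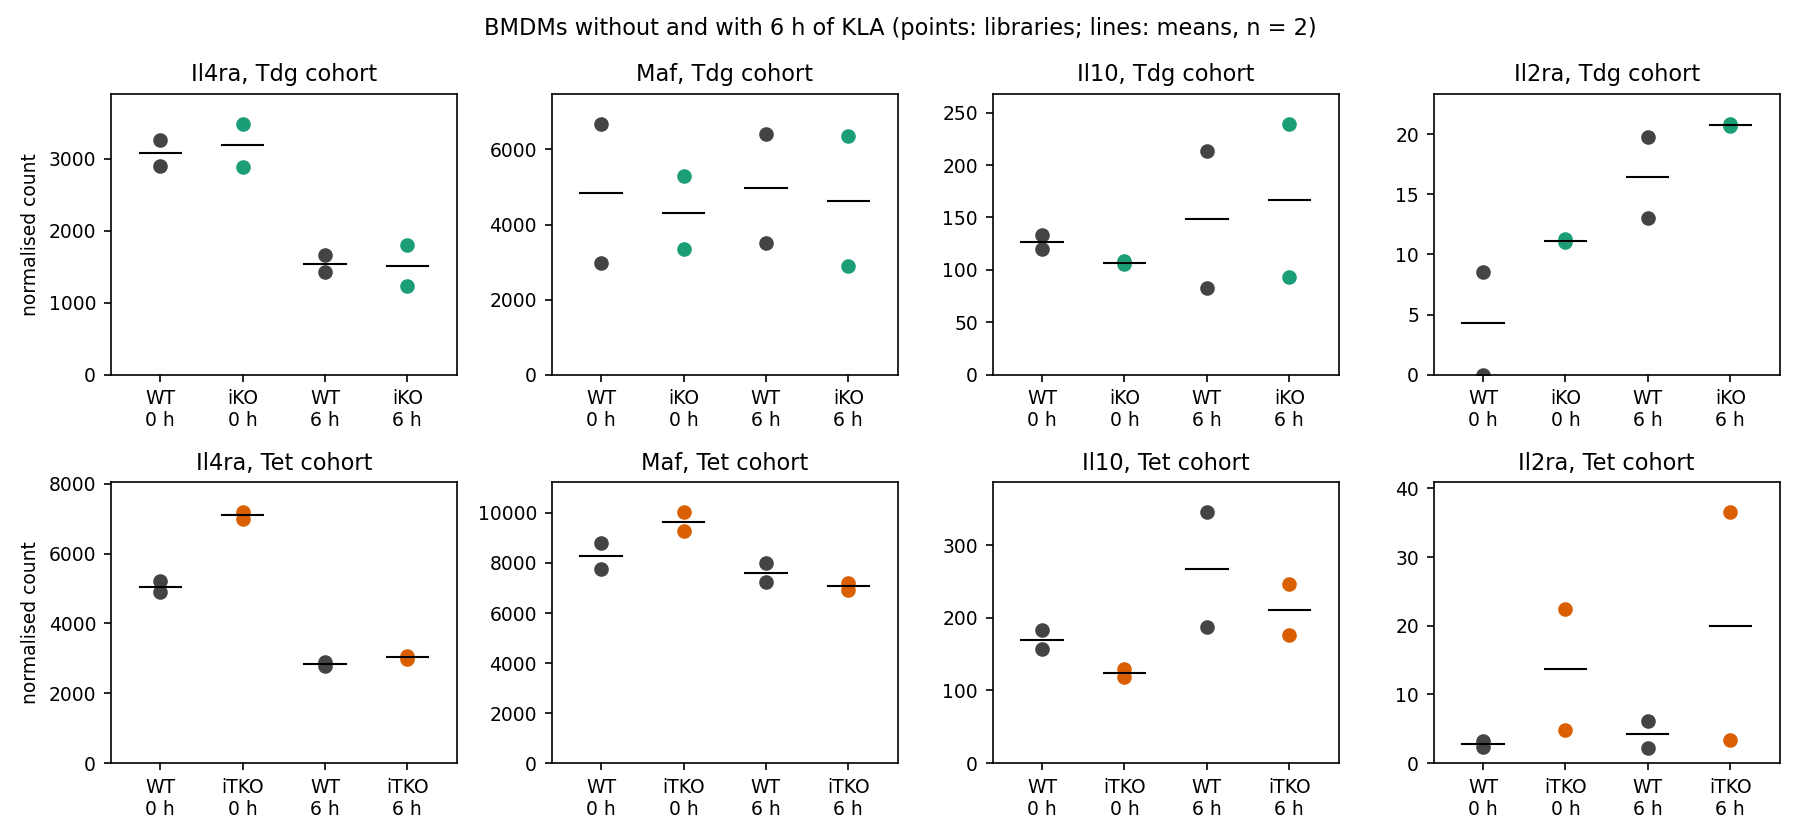
Normalised counts (linear axis from 0) of Il4ra, Maf, Il10 and Il2ra in the 16 BMDM libraries by cohort, genotype and time after KLA. Il2ra had only 0 to 42 raw counts in these libraries. Il4ra is lower at 6 h than at 0 h in every genotype of both cohorts, and at 0 h is higher in TET iTKO than in WT.

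The genes whose levels went most closely with each member were found over 22 samples, which fall into Th2 cells and BMDMs, so that any gene of 1 cell type scores high. Il13 was nearest to Il24 (Pearson r = 0.998) and Il5 to Il13 (r = 0.997). Il4 went with Cd6 and Icos, both T cell surface receptors (r = 0.997 and 0.997), and Gata3 with Zap70, the T cell receptor kinase, and Folr4 (r = 0.997 each). Il10 was nearest to Mboat7 (r = 0.986) and Il2ra to Mta2 (r = 0.993). Maf and Il4ra, expressed in both cell types, had lower values, with Bag3 at 0.974 and Ston2 at 0.976. Il1rl1 had the lowest, with Sun1 at 0.877, among 10093 genes compared.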

How the data were processed

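Total RNA of 24 libraries was sequenced after poly(A) selection with a directional kit. The authors aligned reads to mm9 with HISAT2, counted them per gene with HTSeq and deposited the counts unnormalised, with the submitters' processing notes naming DESeq2 1.30.0. The gene annotation and the strand setting are not given in the sources used here. The 5 tally rows of unassigned reads, 32.8% to 51.6% of each file, were left out.

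Groups were taken from the labels. DESeq2 1.42.0 (Wald test, Benjamini-Hochberg over all genes, threshold 0.05) in R 4.3.3 was the main test, as in the study's methods, and the edgeR 4.0.16 quasi-likelihood test the alternative. TPM were computed from the counts and mm9 exonic lengths for 21259 of 23420 symbols. Scripts were tested on simulated data. The members and gene lists were chosen with earlier results of these data known. The genes named are the 10 members, from each other list at most the 4 called genes with the largest change, and the 2 genes nearest each member by Pearson's r, where Rad50, Csf1r, Fcer1a, Ms4a2, Prss34 and Cpa3 were named after their values were seen.

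Alternatives were TMM factors, a low-count filter (10 or more counts in 2 or more libraries), leaving out libraries, other treatments of the Th2 sets, and the replicate block. Deviations of same-numbered WT and TDG iKO Th2 libraries from their group means correlated with r = 0.673, 0.85, 0.894 and 0.901 across 9769 genes. Those deviations include the difference between the library sets, and libraries of unlike number were not compared. The correlations therefore cannot show that the numbers pair the libraries, and the block takes that pairing as given. Fits of 1 genotype, of Th2 replicates 3 and 4 against BMDMs, edgeR with the block and the block without replicate 1 were added after the data were seen.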

Additional observations from a re-analysis of the deposited data

Results flagged for a closer look

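Il24 stood out because the genotype effect in Th2 cells differed between replicates 1 and 2 and replicates 3 and 4 by a test of the difference itself, with a value of 1.47 on the log2 scale (DESeq2 adjusted p 1.1e-10). It was lower in TDG iKO in both pairs of the first set and higher in both pairs of the second. The pairs of the second set are close to 1 observation, as those replicates differed by little more than counting noise. The 45S ribosomal share, the depth and the marker sums given above also differed between the sets, and their part was not tested.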

How the results depend on the processing

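Of 580 repeats of the log2 fold changes given above under alternative settings, 512 kept the direction and the side of the threshold, 15 newly passed, 12 no longer passed and 41 changed sign. Every sign change was in a genotype effect, or in its difference between times, that had not passed in the first place. For the TDG effect in Th2 cells, where 0 members were called, the replicate block, the block with replicates 3 and 4 summed, replicates 1 and 2 only and the block without replicate 1 each gave 1 lower member (Maf), the set covariate gave 3 lower, and replicates 3 and 4 only, whose spread is near counting noise, gave 4 higher and 3 lower. The block changed no other call of a member. Signs changed with replicates 3 and 4 summed (Il4 -0.024, Il24 -0.071, Il2ra -0.057), in replicates 1 and 2 only (Il4 -0.085, Il24 -0.20, Il2ra -0.20), in replicates 3 and 4 only (Il10 0.24, Il4ra 0.068) and with the block without replicate 1 (Il10 0.020, Il4ra 0.0058). Leaving out 1 library moved Il4 from -0.17 to 0.25, Il5 from -0.64 to 0.53, Il13 from -0.30 to 0.68, Il10 from -0.38 to 0.13, Il24 from -0.32 to 0.54 and Il2ra from -0.16 to 0.25.

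Between the sets, members called higher were 1 to 2 with 1 sample left out, 2 with the 8 libraries not summed and 0 in WT only. In BMDMs the KLA response of the Tdg cohort gave 0 lower members with edgeR and 0 to 1 with 1 library left out, and that of the Tet cohort 0 to 1 higher (Il10 at 1.02 without WT 6 h replicate 1). The Il4ra effect of TDG ran from -0.086 to 0.18 at 0 h and from -0.33 to 0.23 at 6 h, and the difference between the times from -0.38 to 0.18. The causes of these changes were not tested. Same-numbered BMDM libraries of the Tdg cohort correlated with r = 0.313 at 0 h and 0.822 at 6 h and those of the Tet cohort with 0.0175 and 0.065, over 2 pairs each, and the block there gave Il4ra -1.001 (DESeq2 adjusted p 0.000195) for KLA in the Tdg cohort and 0.49 for TET at 0 h. Low counts limit Il1rl1 in Th2 replicates 1 and 2 and Il2ra and Il1rl1 in BMDMs. For Il1rl1 in Th2 cells, TDG iKO replicate 1 had 1 count among 12288517 assigned and TDG iKO replicate 4 had 341 among 12522533.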

Other observations

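In BMDMs of the Tet cohort, Il2ra had 25 and 42 raw counts at 0 h and 6 h in TET iTKO replicate 2 against 4 and 3 in replicate 1 and 2 to 6 in WT. The BMDM libraries of the Tdg cohort had 0 to 27. Il1rl1 had 10 and 11 raw counts in the TDG iKO BMDMs at 0 h against 2 and 0 in WT. Depth was unequal, with 19405606 assigned counts in TDG iKO replicate 2 and 4982950 in WT replicate 2. The normalised counts were 9.17 and 5.91 against 1.90 and 0, and the log2 change of 2.71 (SE 2.11, DESeq2 adjusted p 0.997) did not pass.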
